A study of Ovis aries with 9 samples.

Results

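A group of 9 genes of the reproductive and magnocellular neuropeptide systems were followed in hypothalamus RNA of Dolang sheep, a breed of Xinjiang, around the first estrus. These were GNRH1, KISS1, KISS1R, TAC3, TACR3, AVP, OXT, OXTR and NPVF, chosen by symbol, with earlier results of these data known, and are 9 of the 21284 genes with an NM or XM transcript in the deposited table. The tissue came from untreated ewes, 3 at prepuberty (120 to 121 days of age), 3 at puberty (130 to 131 days) and 3 at postpuberty (150 to 151 days), with 1 library per ewe. Stage had been assigned by behaviour and by the state of the vulva, and the ewes of the puberty stage were at their first estrus. Values are FPKM, fragment numbers scaled to transcript length and to library size, summed over the NM and XM transcripts of a gene, and an FPKM of at least 0.5 is the level at which the study counted a transcript as expressed.

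GNRH1 encodes the releasing hormone that drives secretion of the gonadotropins from the pituitary, and it is made by a small number of scattered neurons. Kisspeptin (KISS1) excites these neurons through its receptor KISS1R, and in the arcuate nucleus of the ewe the same cells also make neurokinin B (TAC3), which acts on TACR3, so these genes are central to models of puberty onset. NPVF encodes RFamide-related peptides, which are known to restrain the gonadotropic axis. Vasopressin (AVP) and oxytocin (OXT) are the hormones of the magnocellular neurons of the paraventricular and supraoptic nuclei, which are normally among the most abundant transcripts of this tissue, and OXTR is the oxytocin receptor.

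The label of the tissue was compared with its defining genes before the 9 genes were read. Of 9 hypothalamus markers, 5 reached an FPKM of 0.5 in any library, 3 had a median of at least 0.5 and 4 had a median below 0.1. NKX2-1, a transcription factor of the ventral hypothalamus, did not exceed 0.262, SIM1, a transcription factor of paraventricular and supraoptic neurons, did not exceed 0.111, and the arcuate peptide gene AGRP did not exceed 0.169. Other listed genes were present, namely the arcuate list's NPY (median 5.10, highest 22.7) and TBX3 (median 1.29) and the paraventricular list's POU3F2 (1.09 to 4.62). OTP, another factor of these neurons, was 4.91 in Prepuberty 3 and 4.78 in Puberty 1 and at most 0.494 elsewhere. The releasing hormone genes TRH and CRH had medians of 8.11 and 2.99, CRH with 118 in Prepuberty 1 alone. By contrast the neuron, astrocyte and oligodendrocyte lists were present in all libraries, with summed FPKM of 366 to 1538, 2697 to 7108 and 5634 to 13540. Genes of cells that border the hypothalamus also differed between libraries, the anterior pituitary list summing to 2.84 to 35.0 in prepuberty, 3.89 to 102 in puberty and 18.7 to 233 in postpuberty, and the choroid plexus gene TTR running from 9.07 to 723 with 7594 in Puberty 3 alone. The part of tissue composition in the results was not tested. Several defining genes of the hypothalamus were sparse in libraries that held abundant neural RNA, and which nuclei each piece of tissue included was not recorded in the sources used here.

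The library Puberty 2 stood apart from the other 8. Its FPKM summed to 599726 against 359588 to 398109, it held 42441 transcripts above 0 against 67824 to 71787, and 32 genes with an FPKM of at least 10 in all the other libraries were listed at 0 in it. Its neuron marker sum of 366 was the lowest of the 9 libraries. Stage differences are therefore given with and without it, and a value of 0 is described only as listed at 0, because the deposited table does not give the number of reads behind a value.

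GNRH1 and NPVF gave almost no signal. GNRH1 (chromosome 2, 40213106 to 40216894, in the assembly ARS-UI_Ramb_v3.0, as all positions here) has 2 transcripts in the table, and both were listed at 0 in all 9 libraries, so that it gives no stage pattern and was not tested. NPVF (chromosome 4, 72260502 to 72263823) was listed at 0 in 6 libraries and stood at 0.124 in Puberty 1, 0.121 in Postpuberty 1 and 0.0914 in Postpuberty 3. Its mean was below that required for testing (0.1), and in no library did it reach 0.5. The 3 libraries with NPVF belonged to the later stages, and the other libraries of those stages were listed at 0.

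The kisspeptin pair was detected at a trace level in most animals. KISS1 (chromosome 12, 1804554 to 1810568) was listed at 0 in Prepuberty 1 and stood at 0.217 and 0.303 in Prepuberty 2 and 3, at 0.136, 0.360 and 0.124 in Puberty 1 to 3, and at 0.218, 0.0419 and 0.253 in Postpuberty 1 to 3. KISS1R (chromosome 5, 41129716 to 41132860) stood at 0.106, 0.0243 and 0.145 in the prepuberty libraries, at 0.152, 0 and 0.209 in the puberty libraries and at 0.214, 0.117 and 0.0585 in the postpuberty libraries, the 0 being that of Puberty 2. Neither gene reached 0.5 in any library, and for both the 3 stages overlapped. The highest KISS1 value was that of Puberty 2; in Puberty 1 and Puberty 3 it was below Prepuberty 2 and 3 and above Prepuberty 1.

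Neurokinin B and its receptor varied widely between animals of 1 stage. TAC3 (chromosome 3, 162587308 to 162594044) stood at 0.211, 3.49 and 1.87 in Prepuberty 1 to 3, at 2.41, 0.156 and 0.322 in Puberty 1 to 3, and at 0.403, 0.207 and 2.73 in Postpuberty 1 to 3. TACR3 (chromosome 6, 21712404 to 21793473) stood at 0.412, 1.39 and 0.482 in prepuberty, at 1.26, 0.0374 and 0.177 in puberty, and at 0.174, 0.316 and 1.05 in postpuberty. TAC3 thus fell into 2 sets, with 4 libraries at 1.87 or more (Prepuberty 2, Prepuberty 3, Puberty 1 and Postpuberty 3) and 5 at 0.403 or less, and each stage had libraries in both sets. These 4 libraries were also the 4 highest for TACR3, at 0.482 to 1.39 against 0.0374 to 0.412. Most of the TAC3 signal came from 1 of its 2 transcripts, XM_004006562.6, at 0.117 to 3.05, while XM_015094789.4 was listed at 0 in 4 libraries and reached 0.806 in Postpuberty 3.

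The magnocellular hormones were present in all libraries at low levels. AVP (chromosome 13, 51816502 to 51818582) stood at 0.551, 3.15 and 1.35 in Prepuberty 1 to 3, at 0.683, 10.4 and 0.863 in Puberty 1 to 3, and at 0.688, 2.66 and 1.91 in Postpuberty 1 to 3. It was the only one of the 9 genes at or above 0.5 in all 9 libraries. Its highest value was again that of Puberty 2, so that the puberty mean of 3.99 ± 5.56 (SD, n = 3) rested on that library and was 0.773 without it, and Puberty 1 and Puberty 3 lay within the range of the other stages. Prepuberty and postpuberty had means of 1.68 ± 1.33 and 1.75 ± 0.996 (SD, n = 3 each).

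OXT (chromosome 13, 51828205 to 51829108), which lies next to AVP on the chromosome, stood at 0.889, 0.319 and 1.32 in prepuberty, at 0.791, 2.07 and 0.586 in puberty and at 1.15, 4.81 and 0.650 in postpuberty. Postpuberty 2 had the highest value, and only Prepuberty 2 fell below 0.5. The stage means were 0.843 ± 0.502, 1.15 ± 0.804 and 2.21 ± 2.27 (SD, n = 3 each), the puberty mean being 0.689 without Puberty 2, with a spread in postpuberty larger than its mean and with all 3 stages overlapping. OXTR (chromosome 19, 17723378 to 17732965) stood at 0.0550, 0.0868 and 0.166 in prepuberty, at 0.346, 0.0498 and 0.105 in puberty, and at 0, 0 and 0.174 in postpuberty. It was above 0 in 7 of 9 libraries and in none did it reach 0.5.

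**Figure D1:**
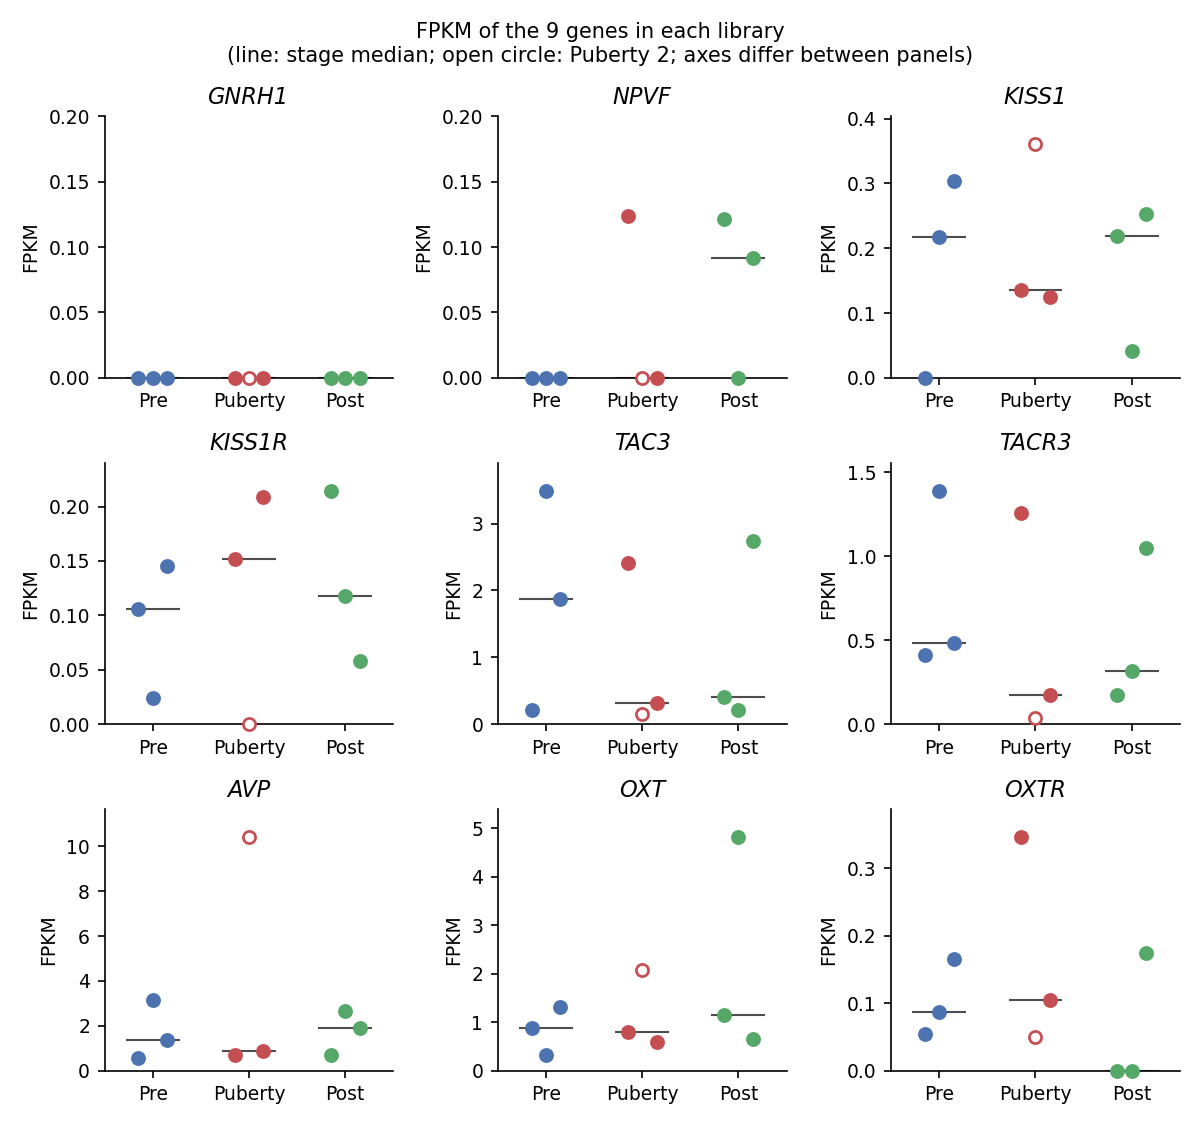
FPKM (vertical axes, each panel with its own linear scale) of each of the 9 genes in the 9 libraries, grouped by stage on the horizontal axis; points are libraries, the line is the stage median and the open circle is Puberty 2. GNRH1 lies at 0 throughout, TAC3 has libraries above 1.8 and below 0.5 in every stage, and the highest AVP value, 10.4, is that of Puberty 2.

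Ordered by median FPKM over the 9 libraries, a scale that allows for transcript length, the genes ran AVP (1.35), OXT (0.889), TACR3 (0.412), TAC3 (0.403), KISS1 (0.217), KISS1R (0.117) and OXTR (0.0868), with NPVF and GNRH1 at 0. The order at the top rested on Puberty 2. Without it the median of TAC3 was 1.14, above AVP (1.11), OXT (0.840) and TACR3 (0.447). That median of TAC3 is the midpoint between its 2 sets of libraries, at 0.403 or less and at 1.87 or more. No library lay near it, so the place of TAC3 above AVP does not describe a typical library. The ranges of all neighbours in this order overlapped. AVP exceeded OXT in 5 of 9 libraries, KISS1 exceeded KISS1R in 5 of 9, and TAC3 exceeded TACR3 in 7 of 9 although its median was lower. TAC3 was above KISS1 in 8 of 9 libraries, the exception being Puberty 2. The ratio of AVP to OXT within a library ran from 0.553 in Postpuberty 2 to 9.89 in Prepuberty 2, so the order of these neighbouring genes differed from animal to animal.

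Set against the whole transcriptome, 54.6% of the 21284 genes had a lower mean FPKM than AVP, 46.3% than OXT, 45.5% than TAC3, 36.9% than TACR3 and 19.6% to 28.3% than KISS1, KISS1R, OXTR and NPVF. Only AVP, OXT and TAC3 had a mean of at least 1, a level that 12281 genes reached, and without Puberty 2 their means were 1.48, 1.32 and 1.46. The genes for peptide processing and secretory granules were at a very different level. The 13 of 14 genes of that list that are in the table all had a median of at least 0.5, led by PCSK1N, an inhibitor of prohormone convertase, with 122 to 238 in 8 libraries and 871 in Puberty 2, and the granule proteins CHGA and SCG2 with medians of 94.3 and 92.6.

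**Figure D2:**
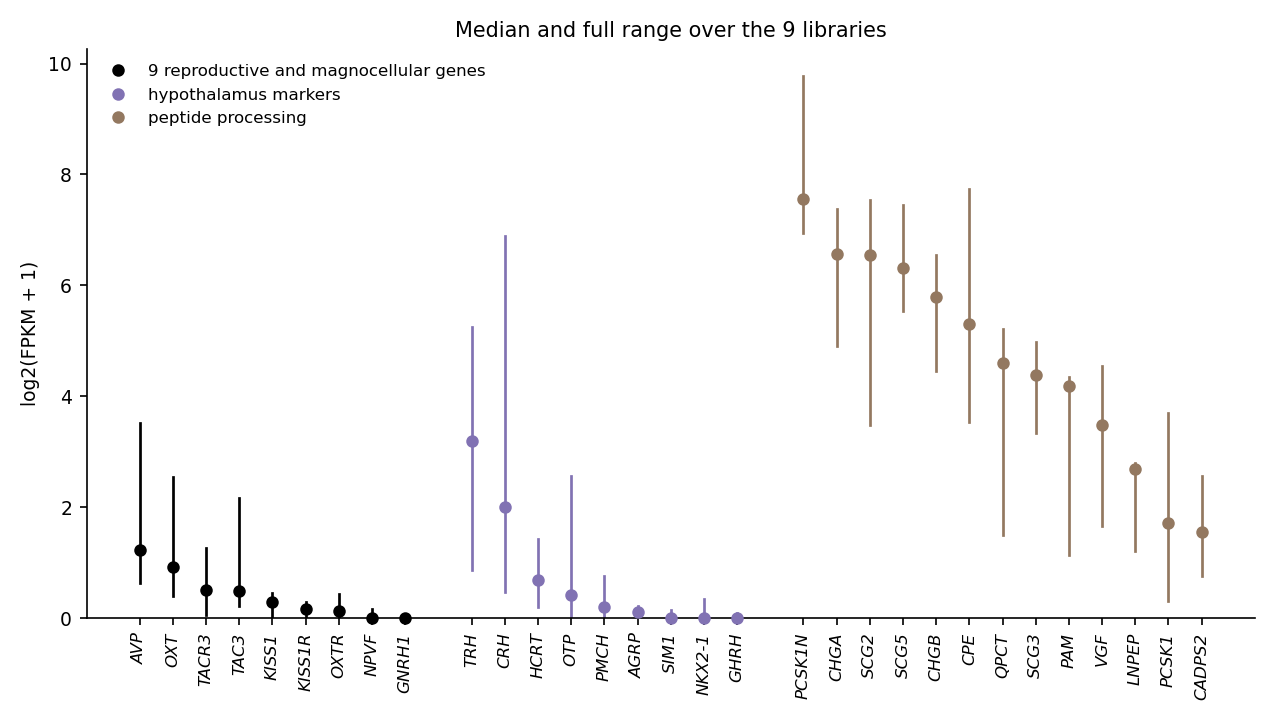
Level of each gene as log2(FPKM + 1) (vertical axis), with the median as a point and the full range over the 9 libraries as a line, for the 9 genes, the 9 hypothalamus markers and the 13 peptide processing genes (horizontal axis). AVP has the highest median of the 9 genes at 1.35 FPKM. Without Puberty 2 the median of TAC3 (1.14) is above that of AVP (1.11), but it falls between the 2 sets of TAC3 libraries, where no library lies. Of the hypothalamus markers 4 lie at or close to 0, whereas every processing gene has a median of at least 0.5 FPKM.

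None of the 7 members tested had a stage difference beyond the spread between ewes. The study asked which transcripts change as ewes enter and leave their first estrus, and the 3 stages were compared here by limma, a linear model fitted across all genes, on log2(FPKM + 1). Calls required a log2 fold change of 1 or more in size and a Benjamini-Hochberg adjusted p below 0.05. In all, 16087 genes with a mean FPKM of at least 0.1 were tested, and 7 of the 9 members were among them. In each of the 3 comparisons 0 of 7 members were called, against a background of 0.0% of all genes tested (0 of 16087), both with all 9 libraries and without Puberty 2. For KISS1, KISS1R and OXTR a call was out of reach on this scale, whatever their stage pattern. Their highest values were 0.360, 0.214 and 0.346 FPKM, and a log2 fold change of 1 on FPKM + 1 needs at least 1 FPKM in some library. At an unadjusted p below 0.05 there were 310, 356 and 149 genes in prepuberty versus puberty, puberty versus postpuberty and prepuberty versus postpuberty, and none was a member. In bulk tissue of this kind, fewer cells of a type and less RNA per cell cannot be told apart.

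From prepuberty to puberty the members of the kisspeptin and neurokinin systems differed by little against their intervals. The log2 fold change, prepuberty minus puberty, was 0.53 (SE 0.62, 95% interval -0.87 to 1.93) for TAC3 and 0.29 (SE 0.35, -0.50 to 1.07) for TACR3, with an adjusted p of 0.865 for both by limma, and without Puberty 2 these were 0.23 (SE 0.72) and 0.07 (SE 0.38). Leaving out each library in turn, TAC3 ran from 0.10 (without Prepuberty 2) to 1.05 (without Prepuberty 1), and TACR3 from 0.045 (without Prepuberty 2) to 0.63 (without Puberty 1). KISS1 and KISS1R differed by -0.04 (SE 0.14) and -0.03 (SE 0.11), with intervals of -0.36 to 0.27 and -0.28 to 0.21, narrow because a pseudocount of 1 compresses levels this low. Without Puberty 2 they differed by 0.05 (SE 0.14) and -0.11 (SE 0.10). AVP differed by -0.41 (SE 0.72, -2.05 to 1.22), and without Puberty 2 by 0.48 (SE 0.46, -0.60 to 1.56), a change of sign set by 1 library. OXT moved from -0.20 (SE 0.48) to 0.09 (SE 0.52) and OXTR from -0.07 (SE 0.12) to -0.15 (SE 0.12) when Puberty 2 was left out.

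From puberty to postpuberty AVP again changed sign with Puberty 2. Its log2 fold change, puberty minus postpuberty, was 0.33 (SE 0.72, 95% interval -1.30 to 1.96) with all libraries and -0.57 (SE 0.46, -1.64 to 0.51) without Puberty 2. OXT was at -0.41 (SE 0.48, -1.49 to 0.66) and at -0.70 (SE 0.52, -1.91 to 0.51). TAC3 and TACR3 were at -0.09 (SE 0.62) and -0.07 (SE 0.35) and turned to 0.20 (SE 0.72) and 0.15 (SE 0.38) without it. The smallest adjusted p of a member by limma, 0.7998, was that of OXTR, with a difference of 0.14 (SE 0.12), or 0.21 (SE 0.12) without Puberty 2, where all adjusted p were 1. KISS1 was at 0.04 and KISS1R at -0.01, and without Puberty 2 they were at -0.05 and 0.06.

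Between prepuberty and postpuberty, the comparison in which Puberty 2 is in neither stage and its removal leaves the differences as they are, the largest difference was that of OXT. It was -0.61 (SE 0.48, 95% interval -1.69 to 0.47), prepuberty minus postpuberty, with an adjusted p of 1 by limma. It rested on Postpuberty 2, without which it was -0.07. TAC3 differed by 0.43 (SE 0.62, -0.97 to 1.84), and by 0.011 without Prepuberty 2, and TACR3 by 0.22 (SE 0.35). AVP, KISS1, KISS1R and OXTR were within 0.09 of 0, with an interval for AVP of -1.72 to 1.55. The intervals of TAC3, TACR3, AVP and OXT each reached 1 log2 unit in at least 1 direction, so changes of the size the study called could not be told from none. For KISS1, KISS1R and OXTR the pseudocount of 1 compresses any change, and narrow intervals do not limit the change in FPKM. Changes of TACR3, TAC3 and OXT are compressed as well. At a pseudocount of 0.1, TACR3 and TAC3 in prepuberty versus puberty were at 1.03 and 1.005 in place of 0.29 and 0.53, with an adjusted p of 0.83 for both by limma. OXT in prepuberty versus postpuberty was at -0.99 in place of -0.61. AVP moved little, to -0.46 from -0.41 in prepuberty versus puberty. With a pseudocount of 0.1 the difference of OXTR in puberty versus postpuberty was 0.77 in place of 0.14, with an adjusted p of 0.779 by limma, and 0 members were called.

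**Figure D3:**
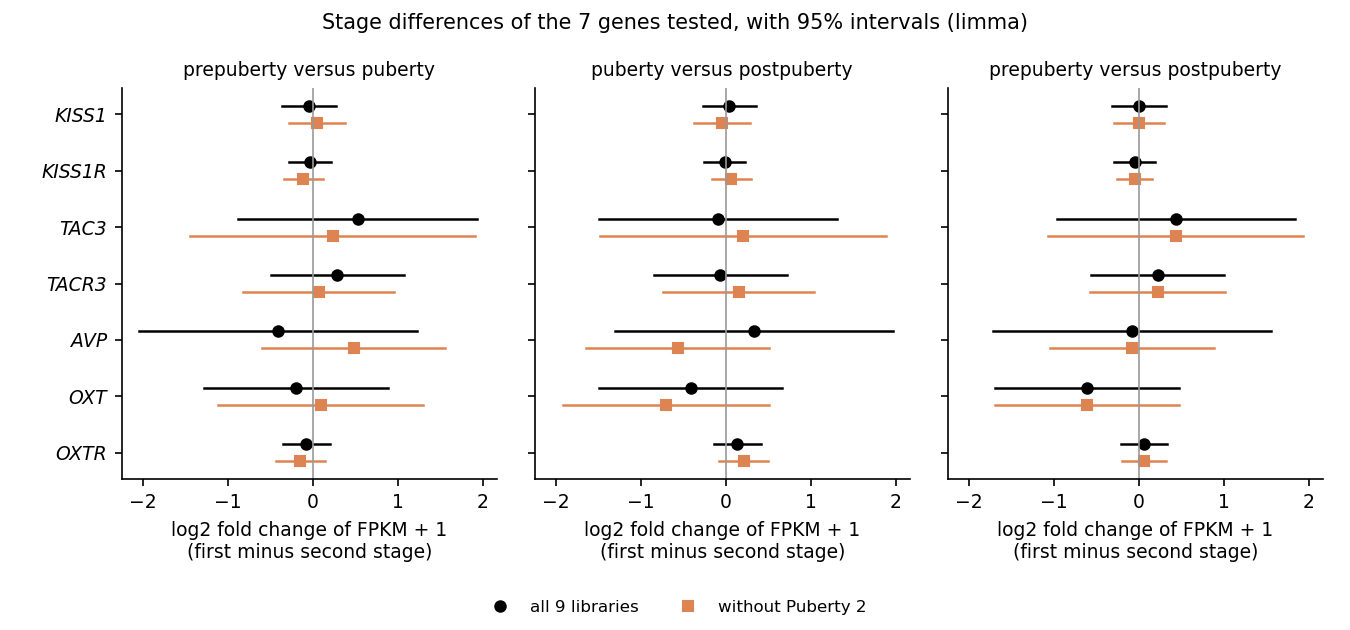
Log2 fold change of FPKM + 1, first minus second stage (horizontal axes), for the 7 genes tested (vertical axis) in the 3 comparisons, with 95% intervals from limma; black circles use all 9 libraries and orange squares leave out Puberty 2. Every interval includes 0, and AVP lies on opposite sides of 0 with and without Puberty 2 in both comparisons with puberty.

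Separation of the libraries was also counted, without a model. For 0 of the 7 tested members did every library of 1 stage lie above every library of another, where 5.28% of all genes tested separated prepuberty from puberty, 7.27% puberty from postpuberty and 4.64% prepuberty from postpuberty. With shares this small, 0 of 7 is near the background and shows nothing particular to the members. Without Puberty 2, 1 of 7 members, KISS1R, separated prepuberty (0.0243 to 0.145) from the remaining puberty libraries (0.152 and 0.209), against a background of 12.1% of genes. The nearest libraries of these stages differed by 0.0068 FPKM of KISS1R. For puberty versus postpuberty without Puberty 2, 0 of 7 did, against 14.3%. With all libraries, the exact two-sided permutation test of 3 against 3 animals cannot give a p below 0.1.

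The ligand and the receptor of the neurokinin system were highest in the same 4 libraries, whereas the 4 highest libraries of AVP and of OXT were not the same. Because TAC3 fell into 2 separate sets of 4 and 5 libraries, each too small for a correlation of its own, no pooled coefficient is given for its pairs with TACR3 and with KISS1. Both pairs were planned and computed, and they count among the 4 pairs over which p was adjusted. Those 4 libraries had neuron marker sums of 1113 to 1538, and the 5 others had 366 to 1360. Over the 8 libraries other than Puberty 2, the neuron marker sum had a Pearson r of 0.56 with TACR3, 0.70 with AVP, 0.20 with KISS1, 0.00063 with OXT and -0.50 with KISS1R, as a description of libraries that also differ in tissue make-up. In the same order the Spearman rho was 0.69, 0.76, 0.07, -0.48 and -0.69, so that OXT was negative by rank. Whether tissue composition had a part in this pattern was not tested further.

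AVP and OXT, neighbours on chromosome 13, had a Pearson r of 0.37 over 9 libraries (exact permutation p = 0.294, adjusted 0.365 over the 4 pairs computed) and a Spearman rho of 0.17 (p = 0.678, exact permutation test), which was -0.14 without Puberty 2. The r was 0.67 without the 2 libraries farthest from the median of AVP, Prepuberty 2 and Puberty 2. Without Puberty 2 alone it was 0.24 (exact permutation p = 0.647). It turned, to -0.11, when the 2 farthest of the other 8, Postpuberty 2 and Prepuberty 2, were left out as well. KISS1 and KISS1R gave r = -0.36 (exact permutation p = 0.337), -0.62 without Postpuberty 2 and Prepuberty 1, and -0.08 without Puberty 2 alone. Of the 7 pairs considered, those with GNRH1 and the pair OXT and OXTR were not computed, since a gene had to be above 0 in at least 8 libraries.

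**Figure D4:**
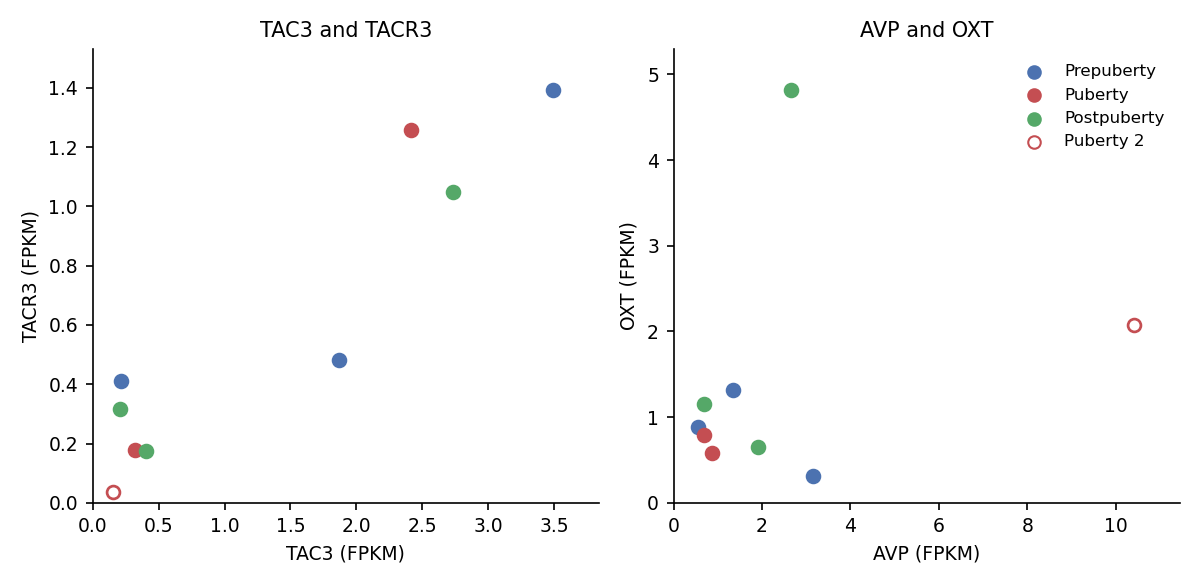
FPKM of TAC3 and TACR3 (left) and of AVP and OXT (right) on linear axes, with 1 point per library coloured by stage and Puberty 2 as an open circle. On the left 4 libraries lie at 1.87 FPKM of TAC3 or more with TACR3 at 0.482 or more, and on the right Puberty 2 is highest for AVP and Postpuberty 2 for OXT.

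The receptors and relatives of the members were also described, with 0 genes called in any list or comparison. Of 8 other peptide receptors 4 were tested. TACR1, the receptor of substance P, was at 0.161 to 2.90 and AVPR1A, a vasopressin receptor, at 0.0373 to 2.66. The GnRH receptor GNRHR did not exceed 0.121, the RFamide receptor NPFFR1 did not exceed 0.0520 and AVPR1B was above 0 in 1 library only. NPFFR2 reached 1.68 in Prepuberty 2, and AVPR2 stayed between 0.0591 and 0.281. Among related peptides, TAC1, which encodes substance P and is made by many neurons outside the hypothalamus, was the most abundant at 4.07 to 99.5, NPFF ran from 1.15 to 2.25, and PRLH was listed at 0 in 8 libraries and stood at 3.48 in Postpuberty 3.

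Receptors for steroids were present at low levels, led by the glucocorticoid receptor NR3C1 at 2.98 to 11.7. The estrogen receptor ESR1, through which a gonadal hormone acts on kisspeptin neurons, stood at 0.374 to 1.08. Of genes that act in the development of GnRH neurons, HS6ST1, AXL and FGFR1 had means of 13.0, 11.6 and 9.53. Of the magnocellular and paraventricular factors, CALB2, ARNT2 and RASD1 had means of 53.3, 12.1 and 7.28, whereas SIM1 did not exceed 0.111 and OTP exceeded 0.5 in Prepuberty 3 and Puberty 1 alone. The largest list median between stages was that of the 13 processing genes, 0.58 for prepuberty minus puberty against 0.10 over all genes, and it was -0.14 against -0.02 without Puberty 2. The medians of the 5 other lists lay between -0.38 and 0.27 in the 3 comparisons with all libraries.

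The genes most like each member across the 8 libraries other than Puberty 2 were taken from 12281 genes of mean FPKM of at least 1, by Pearson r of log2(FPKM + 1), as a description with no test, for TAC3 over values that fall into 2 sets. TAC3 was most like CBLB (r = 0.97), ASPHD1 (0.94) and PNCK (0.93), and TACR3 like AAK1 (0.96), PHKG2 (0.94) and MBD1 (0.94). For AVP they were JAGN1, ABHD12B and MAPRE3 (0.96 each) and for OXT C1QL2 (0.96), DERPC (0.94) and PIGY (0.92), the last of which passed the mean of 1 through Puberty 2 and Postpuberty 2 and was at most 0.0815 in the other 7 libraries. KISS1 was nearest to CAMKMT (0.90), RNF4 (0.88) and NSUN5 (0.87), and KISS1R to MOB3B (0.95), DDIT4L (0.94) and CRB1 (0.93). With Puberty 2 included, the r was 0.32 for ASPHD1, -0.44 for MAPRE3, 0.02 for CAMKMT, 0.21 for RNF4, 0.59 for PIGY and 0.73 for CRB1, and the other 12 were at 0.83 or more, where CBLB with TAC3 and C1QL2 with OXT stayed at 0.95. No gene of the 9 was among the nearest of another, the search being limited to genes above that mean.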

How the data were processed

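RNA of hypothalamus tissue from 9 ewes, 3 per stage, was sequenced by the authors in 1 library per ewe. Per the labels and the study's methods, reads were trimmed with Trimmomatic (version 0.32 in the submitters' processing notes), aligned with HISAT2 to ARS-UI_Ramb_v3.0, and assembled and quantified with StringTie. The deposited values are FPKM per transcript, not whole numbers, under a file name that speaks of raw counts. The table does not give the reads behind a value, so no counting interval is given. A count test could not be used. Stage and replicate number came from the sample labels.

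Of 115108 transcripts, 89674 had RefSeq identifiers and 89672 of these matched a symbol in the RefSeq table of the same assembly, which also gave the gene positions. FPKM of the 76684 NM and XM transcripts were summed per gene. The 22600 transcripts assembled by StringTie carry no position in the table, so signal at the 9 loci that was assigned to them is not included. Genes with a mean FPKM of at least 0.1 entered limma 3.58.1 (R 4.3.3) on log2(FPKM + 1), in a single fit of the 9 libraries with a mean for each stage and a variance trend. Pairs of members were compared by exact permutation tests, two-sided, with Benjamini-Hochberg adjustment over the 4 pairs computed. Named genes are all members, the 3 genes nearest to each member, and from each pathway list the 3 with the highest mean, with the receptors, except 1 gene that is not reported here. The members and lists were chosen with earlier results of these data known. Fits and permutation tests were tested on simulated data. Alternatives were another pseudocount, filters of 0.5 and none, 3 scalings, library weights, a robust variance, a replicate block, all RefSeq transcripts, and each library left out in turn. The authors' own differential expression results were not used.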

Additional observations from a re-analysis of the deposited data

How the results depend on the processing

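Precision is limited by 3 animals per stage, by levels near the lowest the table holds for KISS1, KISS1R, OXTR and NPVF, by the lack of read counts behind each value, and by assembled transcripts that could not be placed at the 9 loci. Across 390 fits of single members under the alternatives, 0 were called and the smallest adjusted p by limma was 0.574. The direction was kept in 345 and turned in 45, of which 27 left out a library, and for none of these small differences was a cause tested. The filters, the robust variance, the replicate block and all RefSeq transcripts left the fold changes as they were. So did leaving out a library of the stage not compared. Such fits are among the 345 and say nothing on how stable a direction is. Equal totals moved the median log2 fold change of all genes to 0.33 for prepuberty versus puberty and to -0.37 for puberty versus postpuberty, from 0.10 and -0.15. The counts of members that separated 2 stages with all 9 libraries were the same under upper quartile scaling and equal totals, which were chosen after seeing the data.

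With library weights, which gave Puberty 2 a weight of 0.076 and Prepuberty 3 one of 7.42, 3 genes were called in prepuberty versus puberty and none was a member. Directions that turned under these weights, first minus second stage, were KISS1 0.16, TACR3 -0.18, AVP 0.37 and OXT 0.35 in prepuberty versus puberty, KISS1 -0.051, KISS1R 0.068, TAC3 0.18, TACR3 0.16 and AVP -0.57 in puberty versus postpuberty, and KISS1 0.11, KISS1R 0.022 and TACR3 -0.019 in prepuberty versus postpuberty. Quantile normalization turned KISS1R (0.0023), TAC3 (0.073) and TACR3 (0.049) in puberty versus postpuberty and KISS1 (0.034) in prepuberty versus postpuberty, where KISS1 also turned under equal totals (0.0044) and upper quartile scaling (0.010). The r of KISS1 and KISS1R was 0.0012 with Puberty 2 left out and stage means subtracted, a combination added after seeing the data.

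Leaving out each library in turn, the genes called numbered 0 to 2 in prepuberty versus puberty, 0 to 2 in puberty versus postpuberty and 0 to 1 in prepuberty versus postpuberty. The calls came without Puberty 1 (2 and 2), Prepuberty 1 (1 and 1) or Postpuberty 3 (1 and 1), and 0 were members. Members that separated 2 stages numbered 0 to 1, 0 to 1 and 0 to 2 in the same order. They were TACR3 without Puberty 1 (14.5% of all genes tested), KISS1R without Puberty 2 (12.1%), and, without Postpuberty 3, OXTR in puberty versus postpuberty (15.4%) and TACR3 and OXTR in prepuberty versus postpuberty (11.9%). The log2 fold changes that turned ran, for prepuberty versus puberty, from -0.12 to 0.067 for KISS1, -0.11 to 0.023 for KISS1R, -0.90 to 0.48 for AVP, -0.39 to 0.091 for OXT and -0.15 to 0.032 for OXTR. For puberty versus postpuberty they ran from -0.047 to 0.093 for KISS1, -0.072 to 0.065 for KISS1R, -0.58 to 0.41 for TAC3, -0.41 to 0.17 for TACR3, -0.57 to 0.81 for AVP and -0.78 to 0.13 for OXT. For prepuberty versus postpuberty they ran from -0.083 to 0.11 for KISS1, -0.095 to 0.0041 for KISS1R, -0.021 to 0.46 for TACR3 and -0.46 to 0.25 for AVP.

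The replicate numbers of the labels were not treated as pairs of ewes. Deviations from the stage means of same-numbered libraries correlated from -0.31 to 0.51, and 3 of 9 libraries correlated best with their own number. With so few libraries per stage these values cannot decide whether the numbers pair the libraries. With the replicate number as a block, 0 genes were called in each comparison, with 329, 380 and 133 at an unadjusted p below 0.05.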

Other observations

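AVPR1A, the vasopressin receptor that acts in the brain and in blood vessels, was chosen here after its values were seen. It stood at 2.04 FPKM in Prepuberty 2, 2.66 in Puberty 3 and 2.58 in Postpuberty 2, and at 0.0373 to 0.628 in the other libraries, so that 1 ewe of each stage was high. These were not the 4 libraries in which TAC3 and TACR3 were highest, apart from Prepuberty 2, which was in both sets. Prepuberty 2 also had the highest value of TAC1 (99.5, against 4.07 to 32.1 elsewhere), NPFFR2 (1.68) and TACR1 (2.90). Its neuron marker sum of 1538 was the highest of the 9 libraries as well, and the part of tissue composition was not tested.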
